A study of Homo sapiens with 10 samples.

Results

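Genes whose transcription follows estrogen in breast cancer cells were followed here through the silencing of *TRPS1* and of *CHD4*. The 44 genes were chosen by symbol as known estrogen-responsive genes, out of 19695 genes in the deposited count tables, and all 44 were found in both tables. They comprise 11 secreted proteins, 11 receptors and signalling proteins, 9 transcriptional regulators, 3 cycle and survival genes, 6 enzymes and transporters, and 4 chaperones and cytoskeletal proteins. No measured value entered the choice, but earlier results of these data were known when the genes were listed. T47D, an established luminal breast cancer cell line that carries the estrogen receptor, was used throughout. RNA-seq compared cells transfected for 72 h with an siRNA against *TRPS1*, with one against *CHD4* and with control siRNA, in 2 libraries a group. ChIP-seq with TRPS1 antibodies (2 libraries) and input (2 libraries) had been used to call 1 list of 1844 TRPS1 peaks. No estrogen treatment is named in the sources used here, so that each change below is one upon silencing and not one upon hormone. The labels do not say whether the 2 libraries of a group came from separate cultures, and the p-values then measure only the spread between these libraries, which may be technical. The labels and the RNA interference methods call the *CHD4* knockdown an siRNA, while the RNA-seq methods call it an shRNA.

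Estrogen receptor alpha, the product of *ESR1*, is a nuclear receptor. Bound to estradiol, it sits on estrogen response elements, directly or together with pioneer factors such as FOXA1 and GATA3, and recruits coactivators of the p160 family, while corepressors such as NRIP1 can counter it. Its best known targets in luminal cells include the secreted peptide *TFF1*, the coregulator *GREB1*, the cyclin *CCND1* and the proto-oncogene *MYC*. TRPS1 is an atypical GATA factor that acts mainly as a repressor, and CHD4 is the ATPase of the NuRD complex, which joins nucleosome remodelling with histone deacetylation.

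The stretch upstream of the start site was read for members past the threshold of the comparisons below, and 7 of them are printed to show whether the letters of an estrogen or a GATA element are there. The sequences are those of RefSeq (GRCh38.p14), 250 bases that end just before a listed start, printed 5' to 3' on the strand of the gene. RefSeq promoter entries matched 30 of the 44 members, in 48 windows. Capitals mark 1 arm of the estrogen response element (GGTCA, on either strand) or a GATA element. The latter was searched on either strand as AGATAA, which ends in A, as AGATAG, which ends in G, and likewise with a first T as TGATAA and also as TGATAG. A sequence without capitals holds neither.
*OLFM1* (chr9:135087010-135087259, plus strand): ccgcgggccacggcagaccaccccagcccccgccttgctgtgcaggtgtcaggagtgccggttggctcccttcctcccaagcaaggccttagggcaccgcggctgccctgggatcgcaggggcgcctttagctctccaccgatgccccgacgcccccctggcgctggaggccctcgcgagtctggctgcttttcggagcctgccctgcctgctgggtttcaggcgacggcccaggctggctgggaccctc
*SLC7A5* (chr16:87869508-87869757, minus strand): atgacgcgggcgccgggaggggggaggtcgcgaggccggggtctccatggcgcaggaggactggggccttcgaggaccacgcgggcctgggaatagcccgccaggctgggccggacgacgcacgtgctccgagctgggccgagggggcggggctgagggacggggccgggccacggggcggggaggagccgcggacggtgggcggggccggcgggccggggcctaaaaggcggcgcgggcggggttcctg
*CXCL12* (chr10:44385098-44385347, minus strand): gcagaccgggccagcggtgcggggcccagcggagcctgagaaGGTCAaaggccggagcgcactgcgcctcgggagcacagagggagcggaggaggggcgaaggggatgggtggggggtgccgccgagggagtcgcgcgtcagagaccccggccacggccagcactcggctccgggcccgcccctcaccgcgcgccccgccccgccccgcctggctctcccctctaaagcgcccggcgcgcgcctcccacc
*STC2* (chr5:173328415-173328664, minus strand): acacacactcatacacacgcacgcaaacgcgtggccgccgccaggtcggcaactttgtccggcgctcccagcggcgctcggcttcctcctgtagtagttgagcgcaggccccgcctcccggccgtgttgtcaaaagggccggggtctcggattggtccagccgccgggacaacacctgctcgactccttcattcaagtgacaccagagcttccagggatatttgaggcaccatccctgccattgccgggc
*CELSR2* (chr1:109249289-109249538, plus strand): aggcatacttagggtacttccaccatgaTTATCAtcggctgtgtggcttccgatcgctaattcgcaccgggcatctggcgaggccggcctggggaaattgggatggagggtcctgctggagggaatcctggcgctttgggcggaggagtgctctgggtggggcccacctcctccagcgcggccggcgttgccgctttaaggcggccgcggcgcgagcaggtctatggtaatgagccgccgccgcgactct
*ELOVL2* (chr6:11044306-11044555, minus strand): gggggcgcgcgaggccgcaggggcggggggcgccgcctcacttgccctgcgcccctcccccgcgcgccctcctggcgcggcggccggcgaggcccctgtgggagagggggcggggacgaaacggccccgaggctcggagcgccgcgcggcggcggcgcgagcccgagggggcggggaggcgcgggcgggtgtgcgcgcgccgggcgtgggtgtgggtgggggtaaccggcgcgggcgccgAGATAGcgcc
*HSPB8* (chr12:119178681-119178930, plus strand): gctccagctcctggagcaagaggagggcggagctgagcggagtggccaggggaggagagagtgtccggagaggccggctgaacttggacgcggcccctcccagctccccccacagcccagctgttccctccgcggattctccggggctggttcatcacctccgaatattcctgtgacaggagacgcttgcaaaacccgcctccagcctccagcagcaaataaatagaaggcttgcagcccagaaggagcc
In *CELSR2* and *ELOVL2* the capitals are a GATA element, and in *CXCL12* a single arm of the estrogen response element. Of the other members past the threshold, *CA12* and *RAPGEFL1* each hold 1 such arm in a window not printed, *SCUBE2* and *SLC9A3R1* hold neither, and *MYC*, *CCND1*, *FKBP4* and *TFF1* matched no entry. The full estrogen response element (GGTCANNNTGACC) was in none of the 48 member windows and in 0.0399% of all 35097 promoter windows of this length. The single arm was in 12 member windows (25.0%, against 32.6% of all windows) and a GATA element in 8 (16.7%, against 22.3%). The full element holds the single arm on both strands, so a full match would also be counted as an arm. A match is a description of these letters and does not show a bound site.

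The libraries held 10333138 to 14668358 counts, so that 3 counts, taken as the floor of detection, correspond to 0.197 to 0.288 CPM, the counts scaled to the depth of the library. Levels are given as CPM scaled with TMM factors over the 6 libraries, always with replicate 1 first, and they are not divided by gene length, so levels of different genes are not compared. Control siRNA replicate 1 stood apart. Its log2 CPM correlated with the other 5 libraries at r between 0.815 and 0.840 across genes, against 0.937 to 0.974 among the other 10 pairs, and it held 14636 genes with a count, against 16779 to 17796 in the others. The 2 control libraries differed by more than 2-fold for 34.9% of the 12921 genes tested and for 10 of 41 members. The *TRPS1* siRNA libraries did so for 3.38% of the genes and 2 members, and the *CHD4* siRNA libraries for 5.89% and 3 members. *TRPS1* was at 1445 and 2269 CPM in control siRNA, 1166 and 722 in *TRPS1* siRNA and 2450.0 and 1587 in *CHD4* siRNA, and *CHD4* was at 300.3 and 285, 302 and 268 and 95.8 and 54.3. Each targeted gene was thus lowest in its own knockdown, with a log2 fold change of -0.97 for *TRPS1*, just under 2-fold, and -1.96 for *CHD4*. Of the luminal markers listed for the cell line (*KRT8*, *KRT18*, *KRT19*, *EPCAM*, *CDH1*, *GATA3*, *FOXA1*, *ELF3*, *ESR1* and *TFF1*), all 10 had over 3 counts in some library, with a summed level of 14116 and 9419 CPM in control siRNA, 5379 and 5549 in *TRPS1* siRNA and 5495 and 4505 in *CHD4* siRNA. The 7 basal markers summed to 18.0 and 16.4 CPM in control siRNA, 38.5 and 35.3 in *TRPS1* siRNA and 54.1 and 34.9 in *CHD4* siRNA, the 6 fibroblast markers to 60.96 to 156 CPM, with 4 of them at or under 3 counts in every library, and the 6 immune or endothelial markers to 6.04 to 9.63 CPM. *KRT8*, *KRT18* and *KRT19* make up most of the luminal sum, and the other luminal markers did not all go their way. *EPCAM* had log2 fold changes of 0.37 with *TRPS1* siRNA and 0.28 with *CHD4* siRNA, *ELF3* of 0.31 and 0.72, and *FOXA1* of -0.25 and 0.21, none of them past the threshold given below. Of the basal markers only *ACTA2* and *TP63* had enough counts to be tested. *TP63*, which the study singled out on these samples and which is no independent evidence, rose with log2 fold changes of 2.36 and 3.06, and *ACTA2* had 0.88 and 0.91 and did not pass. The part of the lower luminal and higher basal marker levels in the results below was not tested. In bulk RNA, fewer cells of a kind and less RNA per cell cannot be told apart.

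Upon silencing *TRPS1*, members went down more often than up. With the threshold the study used, a change of more than 2-fold with a p below 0.05 before adjustment (edgeR's quasi-likelihood test), *SLC7A5*, *RAPGEFL1*, *OLFM1*, *CCND1*, *CELSR2* and *CA12* fell and *ELOVL2* and *HSPB8* rose. These were 6 lower and 2 higher of the 41 members tested (14.6% and 4.88%), against a background of 410 lower (3.17%) and 349 higher (2.7%) among 12921 genes. Scaled by library sizes alone, the split of all genes turned to 254 lower and 489 higher, the median of all genes moved by 0.13 on the log2 scale, and 4 members were lower and 2 higher. The median log2 fold change of the 41 members was -0.49, and that of all genes tested -0.02. None of the members, and 0.0% of the genes, passed a Benjamini-Hochberg adjusted p of 0.05 in edgeR's quasi-likelihood test, where the 8 members had an adjusted p of 0.659. Without adjustment, 902 genes and 9 members had a p under 0.05. Over the 41 members the adjusted p ran from 0.659 to 0.964. The likelihood ratio test gave 34 genes and DESeq2 37 genes at an adjusted p under 0.05, and in both *SLC7A5* was the only member. Without control siRNA replicate 1 the median log2 fold change was -0.29 for the members and 0.02 for all genes, and without control siRNA replicate 2 it was -0.54 and 0.03. Without *TRPS1* siRNA replicate 1 it was -0.48 and -0.03, and without *TRPS1* siRNA replicate 2 it was -0.45 and -0.03. Set against control siRNA replicate 2 alone, 1 of 41 members was lower past 2-fold (*SLC7A5*), against 2.69% of all genes, and 1 higher (*HSPB8*), against 6.05%. At this fold no larger share of lower members was seen there.

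Upon silencing *CHD4*, no member rose and 9 fell, namely *MYC*, *SLC9A3R1*, *SLC7A5*, *OLFM1*, *CCND1*, *CXCL12*, *FKBP4*, *SCUBE2* and *STC2*. This is 22.5% of the 40 members tested, against 368 lower (2.85%) and 336 higher (2.6%) of 12918 genes. With library sizes alone the split of all genes was 222 lower and 456 higher, the median of all genes moved by 0.13, and 8 members were lower. The median log2 fold change was -0.62 for the members and -0.02 for all genes. Again 0.0% of the genes passed an adjusted p of 0.05 in edgeR's quasi-likelihood test, and the 9 members had an adjusted p of 0.792. Without adjustment, 769 genes had a p under 0.05. Over the 40 members the adjusted p ran from 0.792 to 0.991. The likelihood ratio test gave 58 genes and DESeq2 50 genes at an adjusted p under 0.05, none of them a member. Without control siRNA replicate 1 the median log2 fold change was -0.41 for the members and 0.01 for all genes, and without control siRNA replicate 2 it was -0.745 and 0.03. Without *CHD4* siRNA replicate 1 it was -0.68 and -0.02, and without *CHD4* siRNA replicate 2 it was -0.44 and -0.03. Set against control siRNA replicate 2 alone, 6 of 40 members were lower past 2-fold, against 2.64% of all genes, and 0 higher, against 6.56%. Of the 6, *CCND1*, *CXCL12* and *STC2* are among the 9 and *AGR2*, *MYBL1* and *PRLR* are not. The control libraries are shared by both comparisons, so the values of a member in the 2 knockdowns are given side by side below and are not independent of each other.

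**Figure D1:**
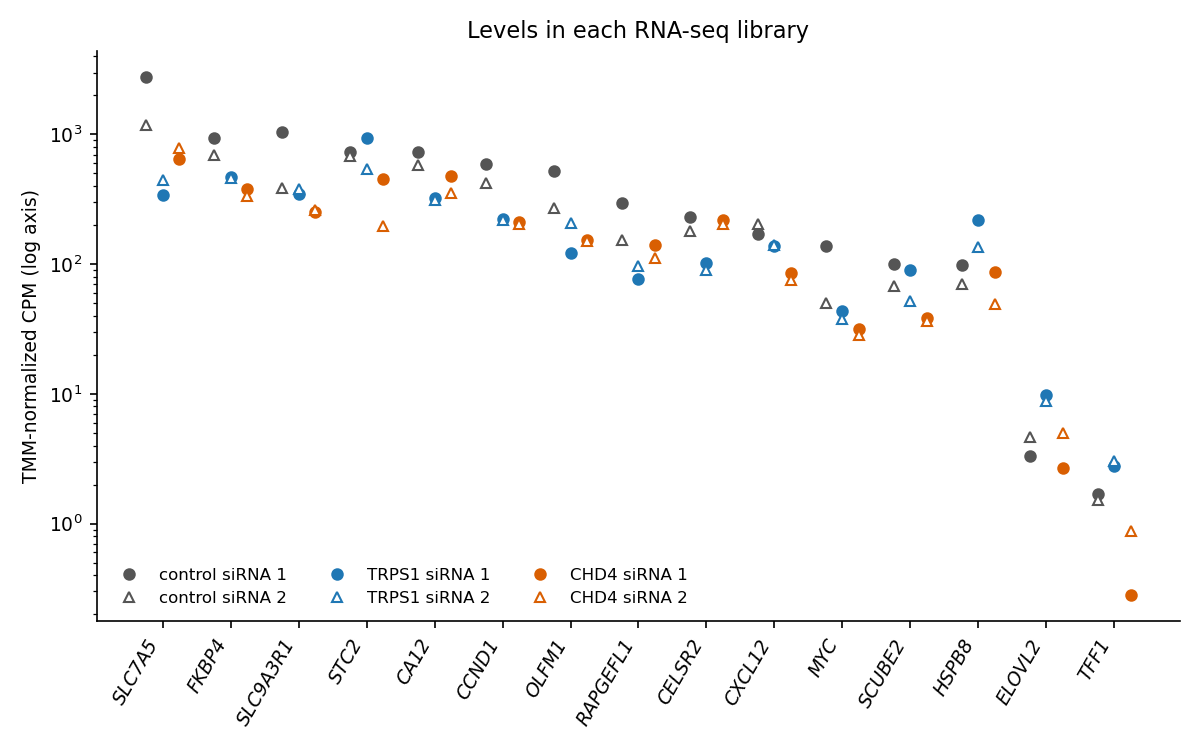
Levels of the 15 members that passed the study's threshold in at least 1 of the 3 comparisons, as TMM-normalized CPM on a log axis, with 1 point for each of the 6 libraries (filled circle, replicate 1; open triangle, replicate 2). *SLC7A5*, *CCND1*, *OLFM1*, *CXCL12*, *RAPGEFL1*, *SLC9A3R1*, *MYC*, *CA12* and *FKBP4* lie below both control libraries in all 4 knockdown libraries. *CELSR2*, *HSPB8*, *ELOVL2*, *STC2* and *TFF1* differ past the threshold between the *TRPS1* siRNA and *CHD4* siRNA libraries.

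Among the secreted proteins, 1 of 11 tested members fell upon silencing *TRPS1* and 4 of 10 upon silencing *CHD4*, and none rose. Over all genes tested, 3.17% fell and 2.7% rose upon silencing *TRPS1*, and 2.85% and 2.6% upon silencing *CHD4*. These shares also stand beside the counts of the roles below, which hold too few members to be compared with each other. *OLFM1*, which encodes the glycoprotein olfactomedin 1, was at 526 and 273 CPM in control siRNA, 121 and 208 in *TRPS1* siRNA and 153 and 150.5 in *CHD4* siRNA. All 4 knockdown libraries were below both control libraries. The log2 fold change was -1.27 ± 0.46 with *TRPS1* siRNA and -1.39 ± 0.42 with *CHD4* siRNA, and without control siRNA replicate 1 it was -0.72 and -0.83, neither past a fold of 2.

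*CXCL12*, the chemokine that binds CXCR4, was at 171 and 204 CPM in control siRNA, 139 and 141 in *TRPS1* siRNA and 86.1 and 75.5 in *CHD4* siRNA. The replicates of each group were close together, and the 3 groups did not overlap. *CXCL12* fell upon silencing *CHD4* (log2 fold change -1.21 ± 0.36) and did not pass upon silencing *TRPS1* (log2 fold change -0.41 ± 0.32). *STC2*, a stanniocalcin, was at 728 and 678 CPM in control siRNA, 942 and 539 in *TRPS1* siRNA and 449.8 and 196 in *CHD4* siRNA, with a log2 fold change of 0.08 ± 0.37 upon silencing *TRPS1* and a fall upon silencing *CHD4* (log2 fold change -1.11 ± 0.46). Its knockdown replicates differed from each other more than its controls did, and the fall was -0.61 without *CHD4* siRNA replicate 2 and -1.82 without replicate 1. *SCUBE2*, a secreted protein of the hedgehog pathway, was at 100.4 and 68.2 CPM in control siRNA, 89.8 and 51.6 in *TRPS1* siRNA and 38.5 and 36.7 in *CHD4* siRNA. Only the *CHD4* siRNA libraries lay below both controls, with a log2 fold change of -1.16 ± 0.40, which ran from -1.41 to -0.84 with a library left out.

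The best known secreted targets did not move in 1 direction. *TFF1*, the trefoil peptide by which estrogen response is often read, had few counts in these T47D cells, with 1.69 and 1.51 CPM in control siRNA (23 and 20 counts), 2.78 and 3.02 in *TRPS1* siRNA (29 and 46 counts) and 0.28 and 0.882 in *CHD4* siRNA (3 and 11 counts). It lay above both controls in *TRPS1* siRNA, with a log2 fold change of 0.86 ± 0.63, and below both in *CHD4* siRNA, where it did not pass the filter of over 2 CPM in at least 2 libraries. With *TRPS1* siRNA it passed that filter only through the *TRPS1* siRNA libraries, where it was higher, so that this value is a description. *TFF3*, its neighbour on chromosome 21, was at 27.1 and 13.5 CPM in control siRNA, 14.3 and 8.27 in *TRPS1* siRNA and 11.4 and 9.06 in *CHD4* siRNA. Here the control replicates differed by about as much as the groups. *AGR2*, a disulfide isomerase of the secretory pathway, was at 198 and 237 CPM in control siRNA, 143 and 117 in *TRPS1* siRNA and 128 and 103 in *CHD4* siRNA, below both controls in all 4 knockdown libraries. Its log2 fold changes, -0.74 ± 0.33 and -0.91 ± 0.36, were both under the fold of 2. Its neighbour *AGR3* was at 7.99 and 36.3 CPM in control siRNA, 35.8 and 22.6 in *TRPS1* siRNA and 45 and 27 in *CHD4* siRNA, so that its lowest value was that of control siRNA replicate 1. *IGFBP4*, which binds insulin-like growth factors, was at 732 and 392 CPM in control siRNA, 470.1 and 404 in *TRPS1* siRNA and 777 and 529.5 in *CHD4* siRNA, and all groups overlapped with control. *AREG*, a ligand of the epidermal growth factor receptor, and *SERPINA1*, a protease inhibitor, did not pass either comparison.

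Among the receptors and signalling proteins, 2 of 10 tested members fell upon silencing *TRPS1* and 1 of 10 upon silencing *CHD4*. *CELSR2*, a cadherin of the flamingo type, was at 231 and 181 CPM in control siRNA, 102 and 90.2 in *TRPS1* siRNA and 220.2 and 204 in *CHD4* siRNA. The *TRPS1* siRNA libraries lay below all others, and the *CHD4* siRNA libraries lay between the 2 controls. The log2 fold change was -1.09 ± 0.33 with *TRPS1* siRNA and 0.05 ± 0.35 with *CHD4* siRNA. The former ran from -1.26 to -0.90 with a library left out, and with library sizes alone *CELSR2* did not pass against control.

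*RAPGEFL1*, named for its likeness to Rap guanine nucleotide exchange factors, was at 296 and 154 CPM in control siRNA, 77 and 96.5 in *TRPS1* siRNA and 141 and 112 in *CHD4* siRNA. It fell upon silencing *TRPS1* (log2 fold change -1.37 ± 0.42) and did not pass upon silencing *CHD4* (log2 fold change -0.82 ± 0.43). Without control siRNA replicate 1 the value with *TRPS1* siRNA was also -0.82. *SLC9A3R1*, the scaffold NHERF1, was at 1041 and 384 CPM in control siRNA, 344 and 379 in *TRPS1* siRNA and 252 and 263 in *CHD4* siRNA. Its fall upon silencing *CHD4* (log2 fold change -1.46 ± 0.50) rests on the higher of 2 controls that differ by over 2-fold, and was -0.56 without it. *PRLR*, the prolactin receptor, was at 2124 and 4974 CPM in control siRNA, 3063 and 1979 in *TRPS1* siRNA and 2394 and 1358 in *CHD4* siRNA, and its controls also differed by over 2-fold, but with replicate 1 the lower. *IRS1*, an adaptor of the insulin-like growth factor receptor, was above both controls in all 4 knockdown libraries, at 69.4 and 59.9 CPM in control siRNA, 110.2 and 91.4 in *TRPS1* siRNA and 105 and 99.7 in *CHD4* siRNA, with log2 fold changes of 0.64 ± 0.33 and 0.67 ± 0.36, neither of which passed. *RET*, a receptor tyrosine kinase, and *SUSD3*, a membrane protein, passed neither comparison, and *ADCY9*, *RERG*, *SIAH2* and *SGK3* are given below with their peaks.

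Among the transcriptional regulators, none of 9 members passed upon silencing *TRPS1* and *MYC* fell upon silencing *CHD4*. *MYC* was at 137 and 50.02 CPM in control siRNA, 43.3 and 37.9 in *TRPS1* siRNA and 31.6 and 28.6 in *CHD4* siRNA. All 4 knockdown libraries were below both controls, and control siRNA replicate 1 was far above replicate 2. The log2 fold change was -1.20 ± 0.52 with *TRPS1* siRNA and -1.63 ± 0.53 with *CHD4* siRNA, and without control siRNA replicate 1 these were -0.29 and -0.71, neither past a fold of 2. With *TRPS1* siRNA *MYC* did pass in the likelihood ratio test, in DESeq2, without a filter on low counts, in 1 fit of all 6 libraries and with the replicate block. *GREB1*, a coregulator that estrogen induces directly, was at 832 and 709 CPM in control siRNA, 709 and 657 in *TRPS1* siRNA and 590.3 and 409.5 in *CHD4* siRNA. It passed neither comparison (log2 fold change -0.17 ± 0.30 and -0.62 ± 0.36). *NRIP1*, the corepressor RIP140, was at 67.8 and 212 CPM in control siRNA, 156 and 186 in *TRPS1* siRNA and 221 and 211 in *CHD4* siRNA, so that control siRNA replicate 1 alone stood low. *RARA*, the retinoic acid receptor alpha, showed the reverse, with 257 and 51.2 CPM in control siRNA, 83.4 and 65.7 in *TRPS1* siRNA and 90.2 and 70.5 in *CHD4* siRNA. The other regulators, *MYB*, *MYBL1*, *EGR3*, *CXXC5* and *FHL2*, had log2 fold changes between -0.92 and -0.14 upon silencing *TRPS1* and between -0.85 and -0.63 upon silencing *CHD4*, and none passed.

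*CCND1*, the cyclin that drives entry into S phase, was at 589.7 and 420.4 CPM in control siRNA, 225 and 219.5 in *TRPS1* siRNA and 210.2 and 205 in *CHD4* siRNA. The 4 knockdown libraries lay within a narrow range below both controls, with log2 fold changes of -1.18 ± 0.33 and -1.28 ± 0.36. *TPD52L1* passed neither comparison, and the survival gene *BCL2* was low, at 0.394 to 2.11 CPM over the 6 libraries, and was not tested.

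Among the 6 enzymes and transporters, 2 fell and 1 rose upon silencing *TRPS1*, and 1 fell upon silencing *CHD4*. *SLC7A5*, which imports large neutral amino acids such as leucine, showed the largest fall of any tested member upon silencing *TRPS1*. It was at 2786 and 1177 CPM in control siRNA, 339.8 and 442 in *TRPS1* siRNA and 641 and 792 in *CHD4* siRNA. The 3 groups did not overlap, and the *TRPS1* siRNA libraries were lowest, with log2 fold changes of -2.34 ± 0.49 and -1.46 ± 0.47. The controls differed by over 2-fold, and without control siRNA replicate 1 the value with *CHD4* siRNA was -0.70, no longer past a fold of 2.

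*CA12*, a membrane carbonic anhydrase, was at 733 and 577 CPM in control siRNA, 324 and 310.2 in *TRPS1* siRNA and 477 and 354 in *CHD4* siRNA. It fell upon silencing *TRPS1* (log2 fold change -1.04 ± 0.32) and did not pass upon silencing *CHD4* (log2 fold change -0.65 ± 0.36). The former ran from -1.20 to -0.86 with a library left out, and with library sizes alone *CA12* did not pass. *ELOVL2*, an elongase of polyunsaturated fatty acids, was at 3.3 and 4.68 CPM in control siRNA, 9.88 and 8.79 in *TRPS1* siRNA and 2.71 and 4.97 in *CHD4* siRNA. It rose upon silencing *TRPS1* (log2 fold change 1.23 ± 0.51), and did not pass in DESeq2. *CTSD*, the lysosomal protease cathepsin D, was at 1004 and 524 CPM in control siRNA, 513 and 487 in *TRPS1* siRNA and 579 and 484 in *CHD4* siRNA, where only control siRNA replicate 1 was set apart. *NAT1*, an arylamine acetyltransferase, and *SLC39A6*, a zinc transporter, passed neither comparison.

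Of the chaperones and cytoskeletal proteins, *HSPB8*, a small heat shock protein, rose upon silencing *TRPS1* and *FKBP4*, a cochaperone of steroid receptors, fell upon silencing *CHD4*. *HSPB8* was at 98.1 and 70.5 CPM in control siRNA, 221 and 135 in *TRPS1* siRNA and 86.6 and 49.7 in *CHD4* siRNA, with a log2 fold change of 1.08 ± 0.40 upon silencing *TRPS1* and -0.30 ± 0.43 upon silencing *CHD4*. Without *TRPS1* siRNA replicate 1 the former was 0.70. *FKBP4* was at 938 and 689.7 CPM in control siRNA, 468 and 458 in *TRPS1* siRNA and 382 and 337 in *CHD4* siRNA. All 4 knockdown libraries were below both controls, with a log2 fold change of -0.81 ± 0.32 upon silencing *TRPS1*, under the fold of 2, and -1.17 ± 0.36 upon silencing *CHD4*. The latter ran from -1.37 to -0.92 with a library left out. *MAPT*, which encodes the microtubule protein tau, was at 1.82 to 3.77 CPM over the 6 libraries and passed neither comparison. *KRT13*, a keratin, was at 1.61 and 0.905 CPM in control siRNA (22 and 12 counts), 0.0959 and 0.197 in *TRPS1* siRNA (1 and 3 counts) and 0 and 0.241 in *CHD4* siRNA (0 and 3 counts). The knockdown libraries were all at or under the floor of 3 counts, and *KRT13* was not tested.

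Because control siRNA replicate 1 stood apart, each knockdown was also set against each control library alone. Against control siRNA replicate 1 the members had a median log2 ratio of -0.54 with *TRPS1* siRNA and -0.76 with *CHD4* siRNA, and against control siRNA replicate 2 of -0.30 and -0.43. The medians of all genes lay between -0.0044 and 0.031 in the 4 sets. The median of the members was thus below that of all genes against either control, by less against replicate 2. Of the 41 members tested with *TRPS1* siRNA, 22 were below both controls, 6 above both and 13 on opposite sides, and of the 40 tested with *CHD4* siRNA the numbers were 24, 6 and 10. This count was not made over all genes, so no share stands beside it and it describes the members only. Past 2-fold, 14 members were lower with *TRPS1* siRNA against replicate 1 (14.8% of all genes) but 1 against replicate 2 (2.69% of all genes). With *CHD4* siRNA these counts were 12 (14.1%) and 6 (2.64%). Higher past 2-fold were 4 members (19.6% of all genes) and 1 (6.05%) with *TRPS1* siRNA, and 3 (18.6%) and 0 (6.56%) with *CHD4* siRNA.

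Past 2-fold against both controls taken singly, *SLC7A5* was the only tested member lower with *TRPS1* siRNA, against 1.16% of all genes tested, and no tested member was higher, against 3.04%. Its log2 ratio was -2.83 against replicate 1 and -1.59 against replicate 2. With *CHD4* siRNA, *CXCL12*, *STC2* and *CCND1* were lower, against 1.06% of all genes, and again no tested member was higher, against 3.03%. The ratios were -1.08 and -1.34 for *CXCL12*, -1.17 and -1.07 for *STC2*, and -1.51 and -1.02 for *CCND1*. These 3 lie close to a log2 ratio of -1, and with library sizes alone none of them was past 2-fold against both. Without *CHD4* siRNA replicate 2 only *CCND1* was left, against 418 of 12918 genes lower. Leaving out *CHD4* siRNA replicate 1 gave 5 lower members, against 151 genes. For *TRPS1* siRNA, leaving out replicate 1 gave 2 lower members, against 134 of 12921 genes. Leaving out replicate 2 gave 4 lower and 2 higher members, against 338 and 524 genes. Members left out of the tests for low counts are not in these numbers. Among them *KRT13* was lower past 2-fold against both controls in either knockdown, *SGK3* with *TRPS1* siRNA (-2.37 and -1.26) and *TFF1* with *CHD4* siRNA (-1.52 and -1.36).

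**Figure D2:**
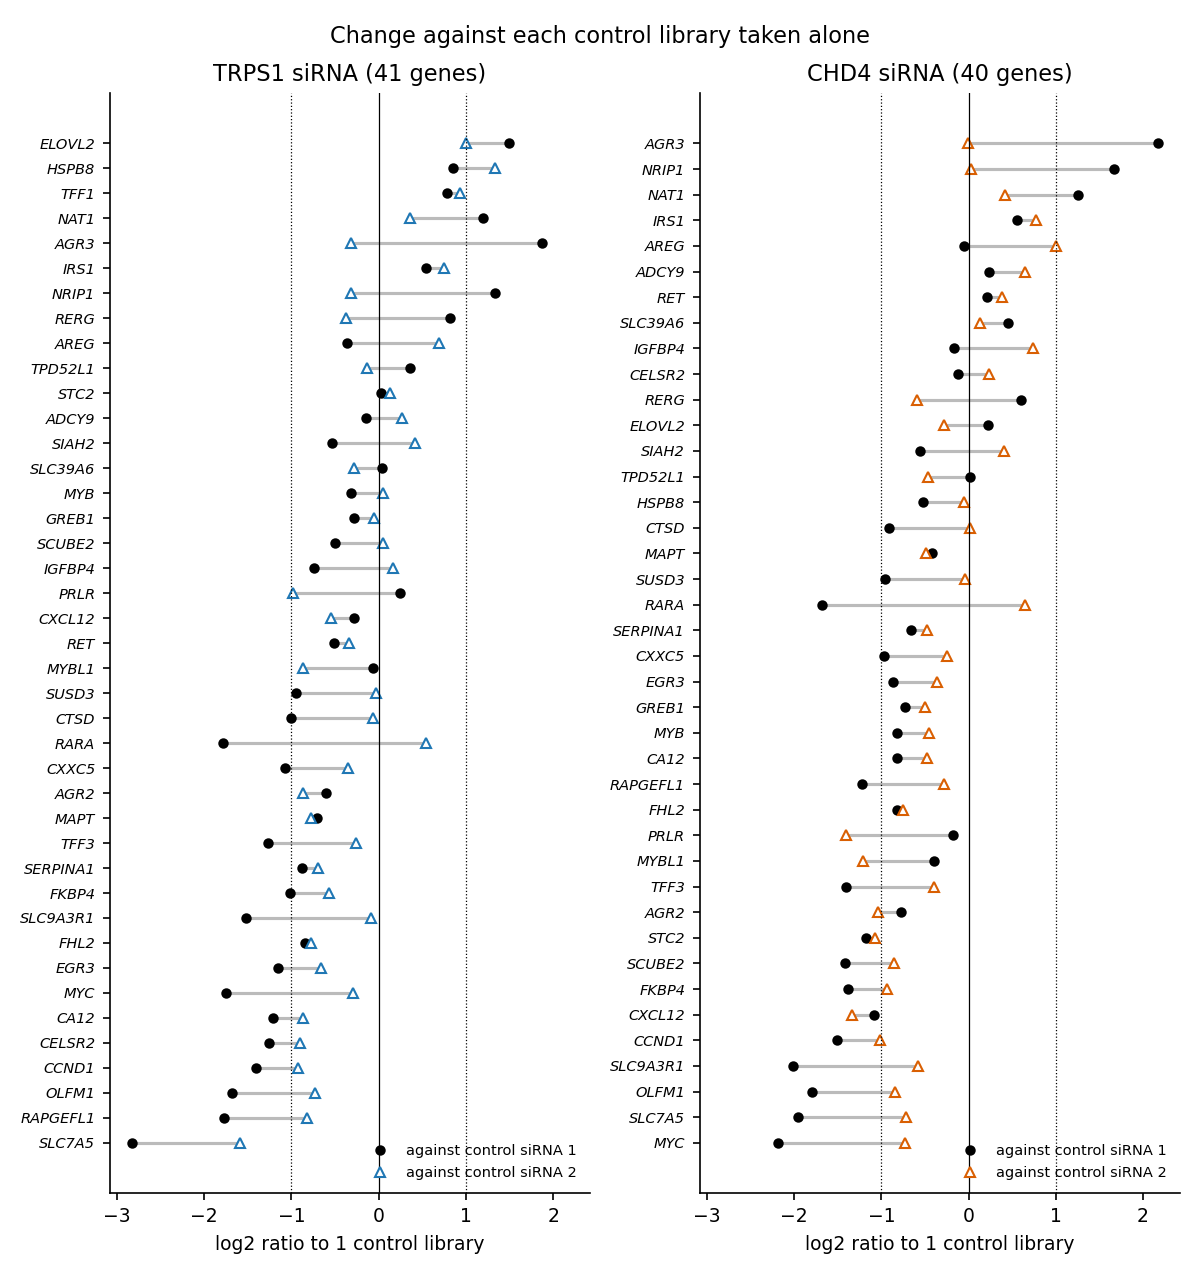
Log2 ratio of each knockdown to each control library taken alone, for the members tested, sorted by the mean of the 2 ratios (black circles, control siRNA replicate 1; open triangles, control siRNA replicate 2; dotted lines, 2-fold). *RARA*, *MYC*, *SLC9A3R1*, *AGR3* and *NRIP1* have the widest gaps between the 2 controls, while *SLC7A5* with *TRPS1* siRNA and *CXCL12*, *STC2* and *CCND1* with *CHD4* siRNA lie past 2-fold against both.

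Counted by overlap alone, 17 of 41 members (41.5%) had both *TRPS1* siRNA libraries below both controls, against 21.6% of all genes tested, and 5 members (12.2%) had them above, against 22.5%. The 5 include *TFF1*, which passed the filter on low values only through the *TRPS1* siRNA libraries. With *CHD4* siRNA, 21 of 40 members (52.5%) were below, against 20.0%, and 4 (10.0%) above, against 19.8%. For a single gene with 2 libraries a group, the exact permutation test cannot go below a two-sided p of 0.333.

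The knockdowns were next set directly against each other, which leaves out both control libraries. *CELSR2* was higher with *CHD4* siRNA, and *TFF1*, *HSPB8*, *ELOVL2* and *STC2* were lower. The median log2 fold change was 0.01 over the 41 members tested and 0.00 over all 13143 genes. The 4 lower and 1 higher members (9.76% and 2.44%) stand against 205 lower (1.56%) and 278 higher (2.12%) of all genes. The 4 include *TFF1*, whose call is a description as given below, and with 2 CPM required of every library 3 of 39 members were lower and 1 higher, against 135 and 178 of 12287 genes. By overlap alone, 13 members (31.7%) had both *CHD4* siRNA libraries below both *TRPS1* siRNA libraries, against 24.1% of all genes, and 10 (24.4%) had them above, against 22.8%.

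*CELSR2* differed by 1.15 ± 0.15, adjusted p = 0.0903, and it kept its place past the threshold without each of the 4 libraries in turn. *HSPB8* differed by -1.37 ± 0.34, adjusted p = 0.167, *ELOVL2* by -1.26 ± 0.35, adjusted p = 0.194 and *STC2* by -1.19 ± 0.45, adjusted p = 0.293. *TFF1* differed by -2.26 ± 0.55, adjusted p = 0.155, but it passed the filter on low values only through the *TRPS1* siRNA libraries, where it was higher, so that its call is a description. *CXCL12* (-0.79 ± 0.15, adjusted p = 0.111), *SLC7A5* (0.88 ± 0.21, adjusted p = 0.149) and *SCUBE2* (-0.90 ± 0.28, adjusted p = 0.221) had an unadjusted p under 0.05 with a change under 2-fold, as did *IGFBP4*, *ADCY9*, *RAPGEFL1*, *SLC39A6*, *SLC9A3R1*, *MYB* and *MYC*, with changes of -0.50 to 0.59. In all, 15 members had such a p. *CCND1* (-0.09 ± 0.14, adjusted p = 0.814) and *OLFM1* (-0.11 ± 0.26, adjusted p = 0.888), which fell in both knockdowns, had 95% intervals of the difference that include 0, from -0.43 to 0.24 and from -0.76 to 0.54.

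No member and 0.0% of all genes passed an adjusted p of 0.05 in edgeR's quasi-likelihood test in this comparison, where 2023 genes had an unadjusted p under 0.05. The likelihood ratio test gave 6 members (*CELSR2*, *CXCL12*, *ELOVL2*, *HSPB8*, *SLC7A5* and *TFF1*) of 570 genes, and DESeq2 gave 4 members (*CELSR2*, *CXCL12*, *HSPB8* and *SLC7A5*) of 456 genes. Without *TRPS1* siRNA replicate 1 the only lower member was *ELOVL2*, without *TRPS1* siRNA replicate 2 there were 3 higher members, and without *CHD4* siRNA replicate 1 there were 2. *STC2* moved from -0.74 without *TRPS1* siRNA replicate 1 and -0.70 without *CHD4* siRNA replicate 2 to -1.92 without *CHD4* siRNA replicate 1.

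**Figure D3:**
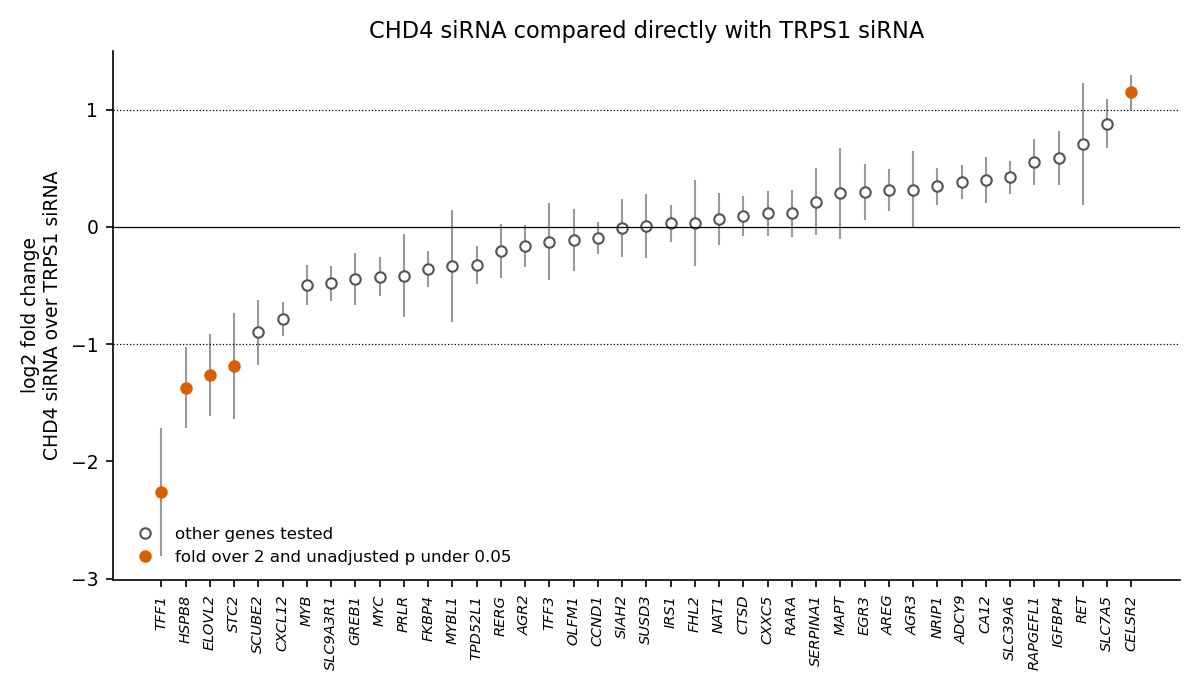
Log2 fold change of *CHD4* siRNA over *TRPS1* siRNA for the 41 members tested, with standard errors as bars (2 libraries a group), sorted by size; dotted lines mark 2-fold. Filled points are the 5 members past the study's threshold, *CELSR2* at the high end and *TFF1*, *HSPB8*, *ELOVL2* and *STC2* at the low end, and most of the others lie within 0.5 of 0.

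To see where TRPS1 was bound near these genes, the peaks were placed on hg38 beside the RefSeq positions of the genes (GRCh38.p14). A peak inside the gene or within 50 kb of a listed start, or of the nearer end of the gene for the 14 members with no listed start, was found for 12 of 44 members (27.3%), against 2466 of 18903 genes placed (13.0%). These were *OLFM1*, *RERG*, *SGK3*, *IGFBP4*, *GREB1* and *PRLR*, with a peak inside the gene, and *MYBL1*, *SIAH2*, *CTSD*, *AGR3*, *ADCY9* and *AGR2*, with a peak outside. The share was 6 of 44 (13.6%, against 5.94%) inside the gene or within 5 kb and 16 of 44 (36.4%, against 20.5%) within 100 kb. The peaks were deposited as 1 list for the 4 ChIP-seq libraries, so none has a replicate error, and genes that lie close together share peaks. The 100 kb limit added *MYC*, *RAPGEFL1*, *SUSD3* and *MYB*. *MYC* lay just outside the limit of 50 kb, with the nearest peak at 57.8 kb, and *AGR2* just inside, at 42.4 kb.

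*OLFM1* (chr9:135075505-135121184) held a peak of 211 bp at chr9:135086199-135086409, 0.851 kb upstream of a listed start within the gene, the start whose upstream bases are printed above. It was the only member that both had a peak within 50 kb and passed the study's threshold against control. *RERG*, a Ras-like growth inhibitor that estrogen induces, held peaks of 404 and 925 bp, the nearer of them at chr12:15220684-15221087, 0.330 kb from an end of the gene. *RERG* was at 43.9 and 100.5 CPM in control siRNA, 86.6 and 68.4 in *TRPS1* siRNA and 78.6 and 54.8 in *CHD4* siRNA, and the groups overlapped. *SGK3*, a kinase of the SGK family, held 2 peaks 1.18 and 1.48 kb from an end of the gene. Its transcript was low, at 2.12 and 0.981 CPM in control siRNA, 0.479 and 0.328 in *TRPS1* siRNA and 0.747 and 0.321 in *CHD4* siRNA, and it was not tested.

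*IGFBP4* held a peak at chr17:40448669-40448938, 5.22 kb downstream of its start. *GREB1* held 2 peaks, 15.8 and 49.6 kb from an end of the gene, and *PRLR* held 3, the nearest at chr5:35214043-35214429, 16.1 kb downstream of a start. These 3 genes are well expressed in T47D and passed the threshold in neither knockdown.

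Outside the genes, *AGR2* and *AGR3* shared 1 peak of 360 bp between them, at chr7:16847408-16847767, 42.4 kb upstream of the start of *AGR2* and 34.2 kb downstream of that of *AGR3*. *AGR2* was lower in all 4 knockdown libraries than in both controls, and *AGR3* was not. *SIAH2*, a ubiquitin ligase, had a peak on either side of it, 24.6 kb upstream and 25.6 kb downstream of its start, and was at 192 and 99 CPM in control siRNA, 141 and 124 in *TRPS1* siRNA and 162 and 100.3 in *CHD4* siRNA. *MYBL1*, a MYB family factor, had 3 peaks 15.6 to 49.8 kb away and was at 85.2 and 149 CPM in control siRNA, 46.5 and 116 in *TRPS1* siRNA and 45.5 and 83.6 in *CHD4* siRNA, with the replicates of each group apart. *ADCY9*, an adenylyl cyclase, had a peak 35.8 kb away and was at 113 and 85 CPM in control siRNA, 95.6 and 109.7 in *TRPS1* siRNA and 133 and 134 in *CHD4* siRNA, the last above both controls. *CTSD* had a peak 32.3 kb upstream.

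Of the 12 members with a peak within 50 kb, 11 were tested. Their median log2 fold change was -0.36 upon silencing *TRPS1*, with a range of -1.27 to 0.40, and -0.51 upon silencing *CHD4*, with a range of -1.39 to 0.71. The members without such a peak had medians of -0.65 and -0.64. None of the 11 rose and 1 fell, *OLFM1*, in either knockdown. Over all genes 3.17% fell and 2.7% rose with *TRPS1* siRNA, and 2.85% and 2.6% with *CHD4* siRNA. Of the members without such a peak, 5 of 30 fell and 2 rose with *TRPS1* siRNA, and 8 of 29 fell and 0 rose with *CHD4* siRNA. None of the 11 differed past the threshold between the knockdowns (1.56% lower and 2.12% higher of all genes), with a range of -0.44 to 0.59. Of the 5 members singled out by the direct comparison, none had a peak within 50 kb.

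**Figure D4:**
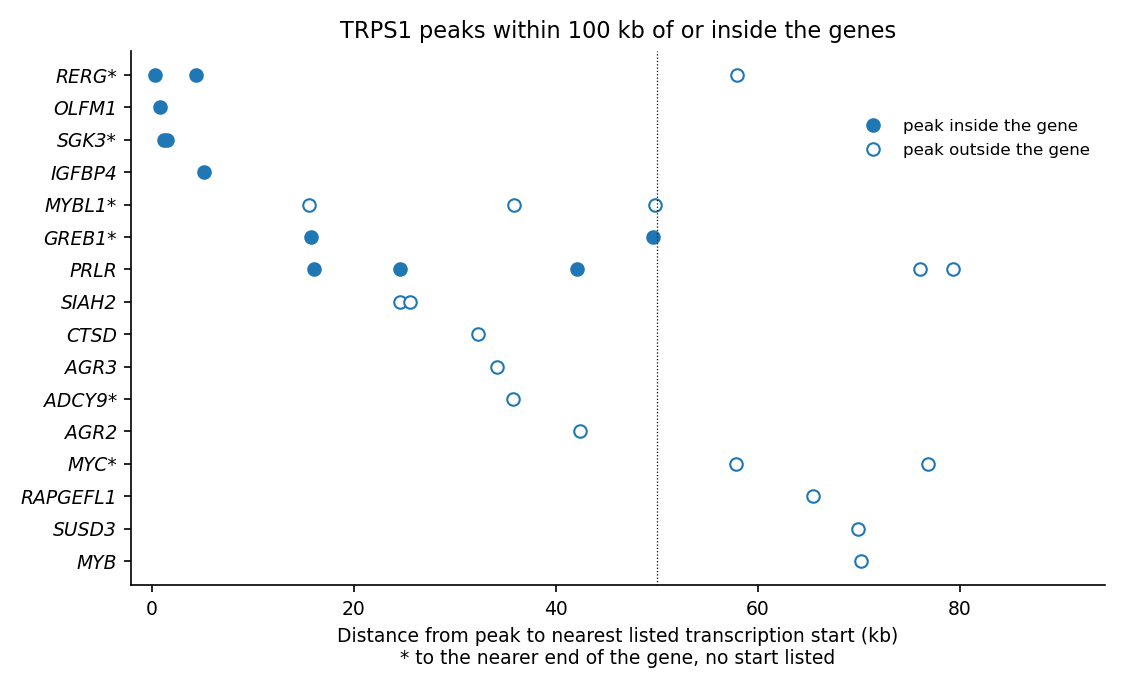
Distance in kb of each TRPS1 peak to the nearest listed transcription start, or for genes marked with an asterisk to the nearer end of the gene, for the 16 members with a peak inside the gene or within 100 kb (filled, inside the gene; open, outside; dotted line, 50 kb). *RERG*, *OLFM1* and *SGK3* have a peak nearest, 4 members have theirs only beyond 50 kb.

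Of the rest of the pathway, the receptor gene *ESR1* was at 268 and 397 CPM in control siRNA, 198 and 235 in *TRPS1* siRNA and 247 and 187 in *CHD4* siRNA. All 4 knockdown libraries were below both controls, and the log2 fold changes, -0.61 ± 0.35 and -0.61 ± 0.38, did not pass. The list of the receptor and its coregulators, 15 genes, had none past the threshold in any of the 3 comparisons, and median log2 fold changes of 0.07, 0.10 and 0.04. A second list of 40 other estrogen-responsive genes had 36 tested upon silencing *TRPS1*, of which 4 fell and none rose, against 3.17% lower and 2.7% higher of all genes, and 37 upon silencing *CHD4*, of which 6 fell and none rose, against 2.85% and 2.6%. The medians were -0.43 in both. *XBP1*, the transcription factor of the unfolded protein response, was at 1385 and 1369 CPM in control siRNA, 740.1 and 603 in *TRPS1* siRNA and 874 and 463 in *CHD4* siRNA and fell in both (log2 fold change -1.03 ± 0.31 and -1.03 ± 0.41). *KRT19*, a keratin that is also among the luminal markers, fell in both as well (log2 fold change -1.39 ± 0.36 and -1.43 ± 0.39). *KCNK15* (log2 fold change -1.86 ± 0.71), a potassium channel, and *E2F1* (log2 fold change -1.25 ± 0.47), a factor of S phase entry, fell upon silencing *TRPS1*. *KCNK15* was at 42.3 and 9.81 CPM in control siRNA and 7.77 and 6.56 in *TRPS1* siRNA, so that most of its fall is against control siRNA replicate 1. *PDZK1* (log2 fold change -1.65 ± 0.42), a scaffold protein, *TOB1* (log2 fold change -1.30 ± 0.39), an antiproliferative protein, *ANXA9* (log2 fold change -1.22 ± 0.43), an annexin, and *UGCG* (log2 fold change -1.15 ± 0.47), the glucosylceramide synthase, fell upon silencing *CHD4*. *UGCG* was at 224 and 493 CPM in control siRNA and 189 and 132 in *CHD4* siRNA, so that most of its fall is against control siRNA replicate 2. In the direct comparison of 39 tested genes of that list, *PDZK1* was lower with *CHD4* siRNA (-2.43 ± 0.18, adjusted p = 0.0903), and *RAB31* (1.26 ± 0.24, adjusted p = 0.116), a small GTPase, and *SYBU* (1.51 ± 0.54, adjusted p = 0.269), a syntaxin-binding protein, were higher. *SYBU* was at 0.863 and 1.64 CPM in *TRPS1* siRNA and 4.95 and 2.41 in *CHD4* siRNA, so it passed the filter on low values only through the group where it was higher, and its call is a description.

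Of the 44 members, 25 overlap another annotated gene in RefSeq. Whether the counting used strand is not stated, so how reads from the shared stretch were assigned cannot be told. Among the members on which the comparisons turn, those that overlap another gene are *SLC7A5*, *ELOVL2*, *HSPB8*, *CA12*, *SCUBE2*, *FKBP4*, *RAPGEFL1*, *SLC9A3R1* and *TFF1*.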

How the data were processed

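RNA-seq and TRPS1 ChIP-seq of T47D cells were examined, and libraries were grouped by their labels. The authors trimmed the reads, aligned RNA-seq reads with STAR, counted them per gene with HTSeq (version 0.9.0 in the submitters' processing notes) and deposited raw counts without normalization. The annotation and the use of strand are not given in the sources used here. Peaks were called by the authors with MACS2 (version 2.1.1, hg38) after BWA alignment (version 0.7.12-r1039), and of the deposited list only peak positions were used. ChIP-seq depth was not analysed here.

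A gene entered a comparison when 2 or more of its 4 libraries exceeded 2 CPM. After TMM scaling, edgeR (version 4.0.16, R 4.3.3) fitted the quasi-likelihood model with a prior count of 0.125, without covariates, and adjusted p-values by the method of Benjamini and Hochberg over all genes tested. Values after ± are standard errors (2 libraries a group), derived from the log2 fold change and its F statistic. Depth was 10333138 to 14668358 counts a library, and 3 counts were taken as the floor, which covers counting error only. Genes and promoters were placed with RefSeq by symbol or by a synonym of a single gene. Alternatives were the likelihood ratio test, DESeq2 (version 1.42.0), other scalings and filters, 1 fit of all 6 libraries, a replicate block, a prior count of 2, and leaving out each library.

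The members and the gene lists were chosen with earlier results of these data known. Values are given in full for members that passed the study's threshold in any comparison, were past 2-fold against both controls singly, or had a peak within 50 kb, and for *TFF1*, *TFF3*, *GREB1*, *CCND1*, *MYC*, *IGFBP4* and *NRIP1*. *IRS1* and *RARA* were added after their values were seen. From the other lists, genes past the threshold and *ESR1* are named. Figures were drawn with matplotlib (version 3.10.9, Python 3.11.15).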

Additional observations from a re-analysis of the deposited data

Results flagged for a closer look

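*TFF1* moved to opposite sides of the controls in the 2 knockdowns, above both control libraries in both *TRPS1* siRNA libraries and below both in both *CHD4* siRNA libraries. The difference between the knockdowns was -2.26 on the log2 scale (SE 0.55), with an adjusted p of 0.155 in edgeR's quasi-likelihood test. The counts behind it were 3 to 46 in a library. *TFF1* passed the filter on low values only through the *TRPS1* siRNA libraries, where it was higher, so that this difference is a description.

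*PDZK1*, from the list of other estrogen-responsive genes, did the same, at 71.1 and 109 CPM in control siRNA, 162 and 145 in *TRPS1* siRNA and 31.4 and 25.4 in *CHD4* siRNA. The difference between the knockdowns was -2.43 on the log2 scale (SE 0.18), with an adjusted p of 0.0903 in edgeR's quasi-likelihood test.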

How the results depend on the processing

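The counts of members past the study's threshold depended most on which libraries entered. Leaving out each library in turn gave 0 to 4 higher and 1 to 14 lower members upon silencing *TRPS1* (0 to 25 at an adjusted p under 0.05), 0 to 3 higher and 1 to 12 lower upon silencing *CHD4* (0 to 14), and 1 to 3 higher and 1 to 4 lower in the direct comparison (0 to 3). Over all genes the ranges were 32 to 2457 higher, 42 to 1847 lower and 0 to 6070 at an adjusted p under 0.05 upon silencing *TRPS1*, 40 to 2255, 51 to 1714 and 0 to 3874 upon silencing *CHD4*, and, in the direct comparison, 172 to 399 lower and 0 to 103 at an adjusted p under 0.05. The high ends came without control siRNA replicate 2, except in the direct comparison. A group reduced to 1 library was assumed to vary like the other. Past 2-fold against each control library singly, 0 to 2 members were higher and 2 to 4 lower with *TRPS1* siRNA when 1 knockdown library was left out. Over all 12921 genes these ranges were 315 to 524 and 134 to 338. With *CHD4* siRNA 1 to 5 members were lower, against 151 to 418 of 12918 genes. Library sizes alone gave 1 higher member with *TRPS1* siRNA (*ELOVL2*), against 531 genes, and 0 lower with *CHD4* siRNA, against 84.

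Upon silencing *TRPS1*, 1 member was higher in DESeq2, without a filter on low counts and with the replicate block, and 1 member passed an adjusted p of 0.05 in the likelihood ratio test, DESeq2 and the replicate block. Over all genes, library sizes alone gave 254 lower, no filter on low counts 635 higher and 724 lower, and the replicate block 741 higher. At an adjusted p under 0.05 there were 34 genes in the likelihood ratio test, 37 in DESeq2 and 32 with the replicate block. Upon silencing *CHD4*, library sizes alone gave 222 lower genes, no filter 730 higher and 673 lower, and the replicate block 582 higher. At an adjusted p under 0.05 there were 58 genes in the likelihood ratio test, 50 in DESeq2, 111 without a filter and 44 with the replicate block. In the direct comparison, 6 members passed an adjusted p of 0.05 in the likelihood ratio test, 4 in DESeq2, 4 without a filter and 22 with the replicate block, and of all genes 570, 456, 424 and 3372. No filter gave 463 higher genes, requiring 2 CPM of all the libraries 178 higher and 135 lower, and 1 fit of all 6 libraries 127 lower. Peaks inside the gene or within 5 kb were found for 6 members in place of 12. The cause of these changes was not tested.

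Single members kept their direction and their side of the threshold in 336 of 350 tests under other settings with all libraries, and in 110 of 172 with a library left out. Both counts take in the 15 members that passed anywhere, also in comparisons where they had not passed, so they do not show how often a call was kept. Most tests that changed with a library left out were of members that had passed and no longer did. *ELOVL2* upon silencing *CHD4* turned from -0.04 to 0.10 with library sizes alone and to 0.0058 with 2 CPM required of all libraries, and it ran from -0.52 to 0.35 with a library left out. Under the same leave-one-out settings *STC2* ran from -0.36 to 0.44 and *SCUBE2* from -0.69 to 0.11 upon silencing *TRPS1*, *CELSR2* from -0.11 to 0.25 and *HSPB8* from -0.74 to 0.073 upon silencing *CHD4*, and *OLFM1* from -0.45 to 0.35 in the direct comparison. None of these members had passed the threshold in the comparison named.

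The replicate numbers of the labels do not state a shared culture or day. The deviations of replicate 1 from its group mean correlated at r = 0.02 between control and *TRPS1* siRNA, 0.00 between control and *CHD4* siRNA, and 0.60 between the knockdowns, across 13269 genes. With 2 numbers a group and no such statement, the numbers were not taken to pair the samples, but whether the knockdown libraries of 1 number belong together is not settled, and it was in the direct comparison that the block gave 22 members at an adjusted p under 0.05 in place of 0. With the replicate block the median log2 fold change of the members was -0.51, -0.59 and -0.04 in the 3 comparisons. The floor of 3 counts limits *KRT13* and, with *CHD4* siRNA, *TFF1*, and the filter on CPM left *SGK3* and *BCL2* untested.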
